A study of Mus musculus with 4 samples.

Results

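The genes described here set the on and off switching of the small GTPases RAS and RAP and the docking of the RAF kinases. They are 10 genes, chosen by these functions with their differences between MEL cells and ES-EP already known: the RAS activators Sos1 and Sos2, the 4 RASGRP activators Rasgrp1 to Rasgrp4, the RAP activator Rapgef1, the RAS inactivators Nf1 and Rasa1, and the RAF scaffold Ksr1. They were matched by gene symbol on an Affymetrix Mouse Gene 1.0 ST array, and all 10 were found among the 19938 genes measured by a probe set with a single symbol. Of these 10, 9 had 1 such probe set. Rapgef1 had 2, and the one with the higher mean signal over the arrays (9.14 against 7.01) was used. RNA came from duplicate proliferating cultures, 2 of MEL cells and 2 of ES-EP. MEL cells are a murine erythroleukemia line, here with a stable transgene for Gata-1 joined to ER, the estrogen receptor, and grown in DMEM with 10% FBS and puromycin. ES-EP are normal erythroid progenitors derived from embryonic stem cells, carrying no listed transgene and grown in StemPro34 medium with erythropoietin (2 u/ml), IGF-1 (40 ng/ml), dexamethasone, stem cell factor (100 ng/ml) and β-mercaptoethanol. Malignancy, transgene, puromycin and medium therefore changed together and cannot be told apart.

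RAS and RAP are molecular switches at membranes, active with GTP bound and inactive with GDP. Exchange factors load GTP. SOS proteins are brought to activated receptors by the adaptor GRB2, and RAPGEF1 is brought by CRK adaptors and acts on RAP. Most RASGRP proteins are drawn to membranes by diacylglycerol, and some, such as RASGRP2, respond mainly to calcium. GTPase-activating proteins such as neurofibromin (NF1) and RASA1 end the signal. Active RAS engages RAF kinases, which start the MEK and ERK cascade, and KSR1 holds these kinases together. In erythroid progenitors this route lies downstream of the receptors for stem cell factor and erythropoietin.

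The start regions of 3 of these genes are shown, because Rasgrp2 and Ksr1 had the widest gaps between the cell types and Rasgrp3 lay at background in both. Each sequence is the stretch of 250 bases before a RefSeq transcription start (GRCm38.p6), read 5′ to 3′ on the strand of the gene. Capitals mark matches, on either strand, to the ETS motif GAGGAAGT of the kind PU.1 binds, to AGATAA or TGATAA, which GATA factors bind, and to the GC box GGGCGG. The Rasgrp2 windows lie on the plus strand of chromosome 19 at chr19:6399625-6399874 and chr19:6401455-6401704, inside the annotated span of the gene (6398957 to 6415216). The Ksr1 windows lie on the minus strand at chr11:79146474-79146723, across the gene's 5′ end, and chr11:79059837-79060086, inside its span (79013440 to 79146533). Those of Rasgrp3 lie on the plus strand at chr17:75435655-75435904, across the 5′ end of the gene, and chr17:75465288-75465537, inside its span (75435870 to 75529054). Whether the inner windows are exonic or intronic was not determined here.
Rasgrp2 first window: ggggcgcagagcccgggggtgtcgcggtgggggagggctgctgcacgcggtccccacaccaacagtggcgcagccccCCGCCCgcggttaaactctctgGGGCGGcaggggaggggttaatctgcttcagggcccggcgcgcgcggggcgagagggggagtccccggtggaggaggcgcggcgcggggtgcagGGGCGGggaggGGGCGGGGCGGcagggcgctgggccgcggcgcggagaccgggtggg
Rasgrp2 second window: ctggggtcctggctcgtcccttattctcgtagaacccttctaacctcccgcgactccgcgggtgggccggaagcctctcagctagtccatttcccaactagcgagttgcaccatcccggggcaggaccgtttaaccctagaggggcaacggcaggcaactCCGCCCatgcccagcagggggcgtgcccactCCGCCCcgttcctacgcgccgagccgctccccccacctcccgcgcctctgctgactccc
Ksr1 first window: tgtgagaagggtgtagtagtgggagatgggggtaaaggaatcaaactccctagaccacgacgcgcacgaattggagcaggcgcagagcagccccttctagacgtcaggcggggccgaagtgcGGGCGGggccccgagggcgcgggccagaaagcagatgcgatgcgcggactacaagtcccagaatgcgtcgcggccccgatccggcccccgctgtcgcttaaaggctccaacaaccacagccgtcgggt
Ksr1 second window: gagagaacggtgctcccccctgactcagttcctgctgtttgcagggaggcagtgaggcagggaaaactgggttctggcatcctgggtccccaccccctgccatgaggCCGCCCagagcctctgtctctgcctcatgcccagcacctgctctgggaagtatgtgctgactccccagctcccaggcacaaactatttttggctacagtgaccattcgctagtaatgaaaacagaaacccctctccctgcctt
Rasgrp3 first window: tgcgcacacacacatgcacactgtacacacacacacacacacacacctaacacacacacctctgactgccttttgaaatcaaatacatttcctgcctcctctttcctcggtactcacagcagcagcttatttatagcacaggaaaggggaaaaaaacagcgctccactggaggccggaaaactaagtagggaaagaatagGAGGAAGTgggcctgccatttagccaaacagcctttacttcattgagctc
Rasgrp3 second window: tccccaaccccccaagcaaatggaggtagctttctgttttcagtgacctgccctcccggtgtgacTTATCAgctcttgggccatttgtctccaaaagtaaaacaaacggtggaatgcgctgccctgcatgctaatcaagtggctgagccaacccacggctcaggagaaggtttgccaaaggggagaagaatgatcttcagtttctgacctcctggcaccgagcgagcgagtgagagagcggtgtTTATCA

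The first Rasgrp2 window held 5 GC box matches, of which a pair overlapped, and the second held 2. Both Ksr1 windows held 1. Among the other genes Sos2, which was not called, had 3 matches and Rasgrp1 and Rasa1 had 1 each. RefSeq gave 12 windows for 9 of the genes (all but Rasgrp4). Of these, 7 held a GC box, against 32.7% of 32851 windows of all genes. The GC content was 47.6% in the first Rasgrp3 window and 52.8% to 82.8% in the others, against a median of 52.4% over all windows. The GC box share was not adjusted for this. The ETS motif GAGGAAGT occurred in 1 of the 12 windows, the first of Rasgrp3, against 2.44% of all windows. GATA matches occurred in the second Rasgrp3 window, which held 2, and in that of Rasgrp1, which held 1, against 16.6% of all windows. The ETS core GGAA alone was in 93.4% of them. These matches describe letters in the windows and were chosen with the expression values known.

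Signals are RMA values on the log2 scale, and a difference is MEL minus ES-EP on that scale. It was tested with limma over all 19938 genes, and a gene was called at a Benjamini-Hochberg adjusted p under 0.05. Because the 10 genes were proposed with earlier results of these arrays known, their calls describe how far the cell types stood apart and are no independent evidence, and Rasgrp2 and Ksr1, known for their gap beforehand, are given without a p. Every array correlated with its replicate at r = 0.998 over all genes. The median difference of all genes was -0.15, and calls were lopsided, with 20.5% of all genes higher in MEL cells and 43.2% lower, 63.8% in all. The background of an array was read from 1027 olfactory receptor genes, which serve smell neurons. Their 95th percentile, the olfactory level, was 5.19 in MEL cells and 5.56 in ES-EP, and a fold against a signal at or below it is called against background and is not exact. The labelled cell type was checked with 9 measured erythroid markers, all of which lay above this level in both cell types. They were not equally strong, since Slc4a1 had means of 5.87 in MEL cells and 11.34 in ES-EP, and Alas2 8.75 and 11.87. Fewer cells with a transcript and less transcript per cell cannot be told apart in such bulk RNA.

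Of the 10 genes, 7 were called higher in MEL cells (20.5% of all genes), 1 lower (43.2%), and 2 were not called, so that 8 of 10 were called in either direction (63.8%). The 7 were Rasgrp2, Ksr1, Rasgrp4, Nf1, Sos1, Rasa1 and Rapgef1, and included exchange factors, both GTPase-activating proteins and the scaffold. The one called lower was Rasgrp1, whose signal was at background in both cell types. At least a 2-fold difference was seen for Rasgrp2, Ksr1 and Rasgrp4, all higher in MEL cells, where 5.72% of all genes met that mark in this direction and 4.27% in the other. The groups of arrays did not overlap for 8 of the 10 genes, against 81.8% of all genes, and for Rasgrp1 the MEL arrays were the lower ones (54.7% of all genes). The median difference of the 10 genes was 0.59, against -0.15 for all genes. The counts of 7 and 1 were the same after quantile normalization, median centring or cyclic loess of the arrays. After these, 26.8%, 28.9% and 28.5% of all genes were called higher in MEL cells and 30%, 28.3% and 27.4% lower. These rescalings also raised the median difference of all genes from -0.15 to -0.027, -0.0058 and -0.0032, which favors higher calls. That the 7 remained is therefore a weak check.

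**Figure D1:**
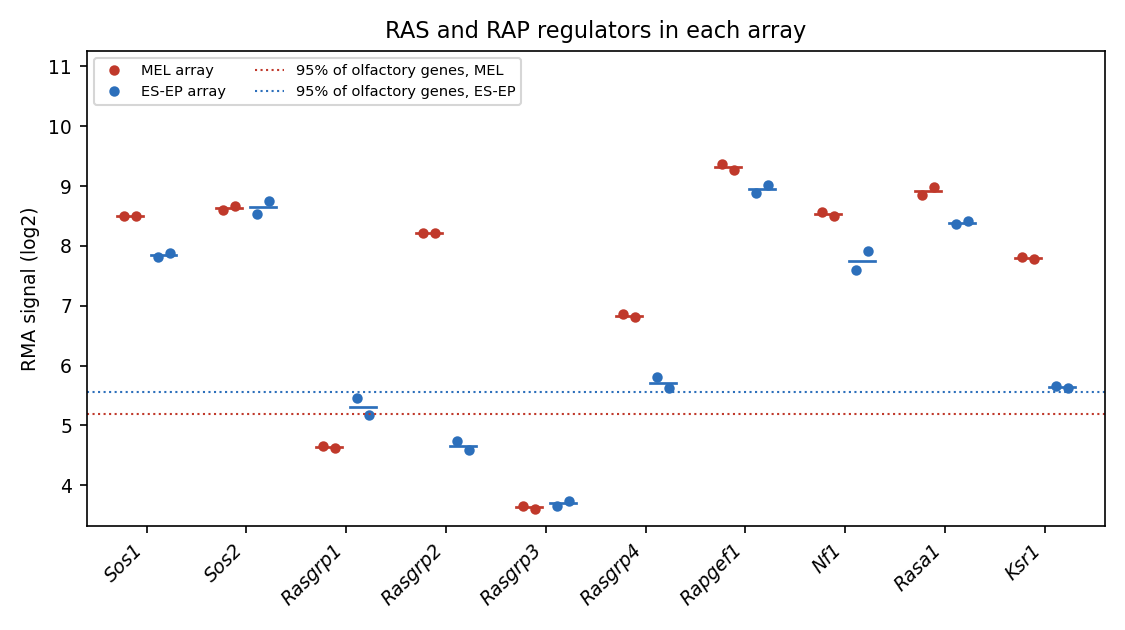
Log2 RMA signal (y axis) of the 10 genes (x axis) in each array, with MEL cells in red and ES-EP in blue. Points are single arrays, short bars are means of 2, and dotted lines mark the olfactory level of either cell type (5.19 and 5.56). Rasgrp2 stood at 8.22 and 8.21 in MEL cells and below the line in ES-EP.

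SOS proteins are the exchange factors that most growth factor receptors use. Sos1 (chr17:80393752-80480453, GRCm38.p6) gave signals of 8.49 and 8.50 in the MEL arrays and 7.81 and 7.89 in the ES-EP arrays. Both MEL arrays lay above both ES-EP arrays, as was the case for 27.1% of all genes. Sos1 was 1.56-fold higher in MEL cells, a difference of 0.64 ± 0.08 (SE, n = 2 cultures per cell type, limma adjusted p = 5.73e-05).

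Its paralog Sos2 (chr12:69583761-69681852) gave 8.60 and 8.67 in MEL cells and 8.54 and 8.76 in ES-EP. These ranges overlapped, with the ES-EP arrays on the outside. The difference was -0.01 ± 0.09 (adjusted p = 0.906), with a 95% interval of -0.22 to 0.19, and its sign turned to positive under each of the 3 rescalings. Since a ratio within an array does not change when all its log2 values shift alike, Sos1 was also set against Sos2 in each one. Quantile normalization and cyclic loess can still change such a ratio. Sos1 minus Sos2 was -0.10 and -0.17 in the MEL arrays and -0.73 and -0.87 in the ES-EP arrays. The paralogs thus changed unequally between the cell types, by 0.66 on the log2 scale, a value that was not tested.

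The 4 RASGRP genes, best known from lymphocytes, platelets and mast cells, held the widest gap between the cell types and also a pair of genes at background. Rasgrp2 (chr19:6398957-6415216) encodes CalDAG-GEFI, a calcium-responsive exchange factor that acts mainly on RAP and is known from platelets. Its signals were 8.22 and 8.21 in MEL cells and 4.74 and 4.59 in ES-EP, the latter below the olfactory level. The MEL arrays nearly coincided and stood clear of both ES-EP arrays. The difference of 3.55 ± 0.08 (SE), or 11.7-fold against background, ranked 87 from the top of 19938 genes. After rescaling it lay between 3.67 and 3.70.

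Rasgrp4 (chr7:29134607-29153961), a RAS activator known from mast cells, gave 6.86 and 6.81 in MEL cells and 5.80 and 5.62 in ES-EP. The ES-EP mean of 5.71 was just above the olfactory level, so the size of the gap is not exact. Rasgrp4 was 2.18-fold higher in MEL cells (1.12 ± 0.09, SE, limma adjusted p = 1.76e-06), and the 2 groups of arrays did not overlap. The remaining pair of this family lay at background. Rasgrp1 (chr2:117279983-117342877), the activator by which T cell receptors reach RAS, gave 4.66 and 4.63 in MEL cells and 5.45 and 5.18 in ES-EP. All 4 values lay below the olfactory level of their cell type, so its difference of -0.67 ± 0.10 (adjusted p = 0.000196) is given with no direction of expression. It shrank to -0.44 with quantile normalization and -0.42 with cyclic loess.

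Rasgrp3 (chr17:75435870-75529054), a RAS and RAP activator prominent in B cells, lay below the olfactory level in every array, at 3.66 and 3.61 in MEL cells and 3.66 and 3.74 in ES-EP. These ranges overlapped. No difference was detectable between the cell types (-0.06 ± 0.08, adjusted p = 0.511, 95% interval -0.25 to 0.12), and its sign turned under each rescaling. The other pair was also compared within arrays. Rasgrp2 minus Rasgrp4 was 1.36 and 1.40 in the MEL arrays and -1.07 and -1.03 in the ES-EP arrays, a change of 2.43 that was not tested. The ES-EP ratios are against background, since Rasgrp2 there lay below the olfactory level and Rasgrp4 only 0.15 above it, so neither they nor this change are exact.

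Rapgef1 (chr2:29619720-29740364), the RAP activator reached through CRK, was well above the olfactory level in both cell types. Its main probe set gave 9.37 and 9.26 in MEL cells and 8.89 and 9.03 in ES-EP. MEL arrays stood above ES-EP arrays by a small margin, 1.28-fold in the means (0.36 ± 0.09, adjusted p = 0.00453). Its weaker probe set gave 7.11 and 7.01 in MEL cells and 7.03 and 6.89 in ES-EP and differed by 0.10 (limma adjusted p = 0.339), and with the mean of both probe sets the difference of Rapgef1 was 0.23. The call of Rapgef1 ended when MEL replicate A was left out (0.30, adjusted p = 0.0556), within a range of 0.000594 to 0.0556 over the alternatives that kept the test and its adjustment.

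Both inactivators of RAS moved in the same direction as Sos1. Nf1 (chr11:79339590-79581609), which encodes neurofibromin and is a tumor suppressor, gave 8.57 and 8.50 in MEL cells and 7.60 and 7.91 in ES-EP. The ES-EP arrays were more spread than the MEL arrays (SD 0.22 against 0.05) but lay below them both. Nf1 was 1.71-fold higher in MEL cells (0.78 ± 0.11, adjusted p = 0.000112). Rasa1 (chr13:85214699-85289486), which encodes a RAS GTPase-activating protein that binds phosphorylated receptors, gave 8.85 and 8.99 in MEL cells and 8.36 and 8.41 in ES-EP. It was 1.45-fold higher in MEL cells, without overlap (0.54 ± 0.08, adjusted p = 0.000307).

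The ratio of activator to inactivator signal was also followed within arrays. Sos1 minus Nf1 was -0.07 and 0.00 in the MEL arrays and 0.21 and -0.02 in the ES-EP arrays, which overlapped. Sos1 minus Rasa1 was -0.36 and -0.49 in the MEL arrays and -0.55 and -0.52 in the ES-EP arrays. Between the cell types these ratios moved by -0.13 and 0.11, against 0.66 for Sos1 minus Sos2, and none of these changes was tested.

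Ksr1 (chr11:79013440-79146533) encodes the kinase suppressor of RAS, which holds RAF, MEK and ERK together. Its signals were 7.82 and 7.78 in MEL cells and 5.66 and 5.62 in ES-EP. Replicates lay close together in either cell type, and the groups did not overlap. Ksr1 was 4.46-fold higher in MEL cells (2.16 ± 0.08, SE), rank 349 of 19938 genes by difference. Its ES-EP mean of 5.64 was only 0.08 above the olfactory level, so this size is not exact either. The other member of its family, Ksr2, gave 5.12 and 5.25 in MEL cells and 5.61 and 5.62 in ES-EP, near background in both cell types.

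**Figure D2:**
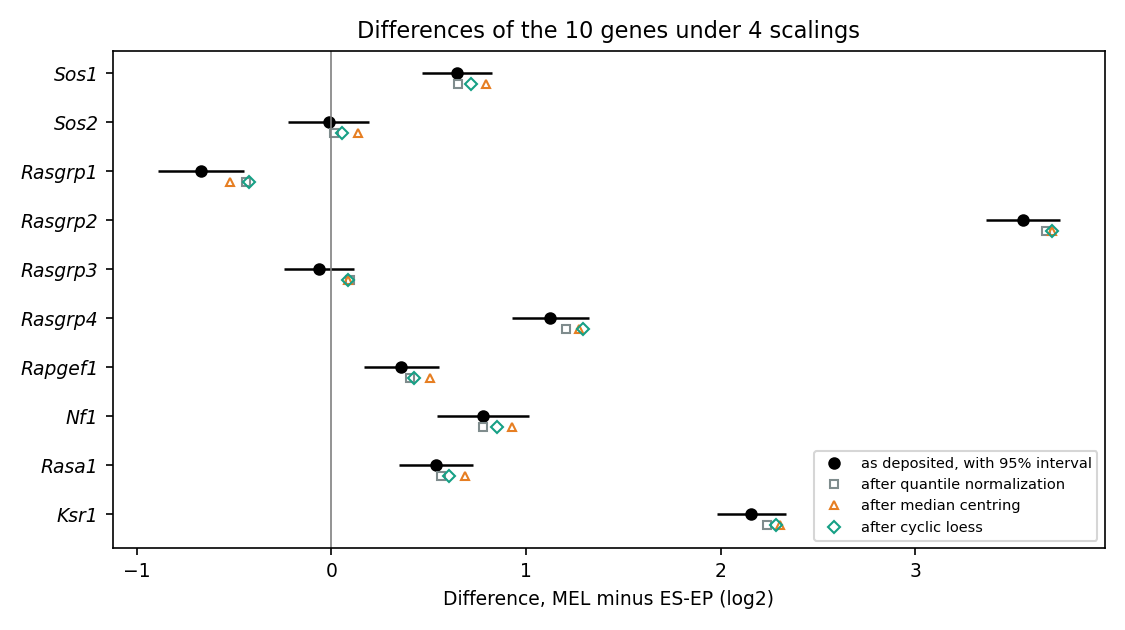
Difference between MEL cells and ES-EP (x axis, log2) for each of the 10 genes (y axis). Black points with lines are the deposited values with limma's 95% interval, and open symbols are the differences after 3 rescalings. Rasgrp2 stood at 3.55 and Ksr1 at 2.16, while the interval of Sos2 ran from -0.22 to 0.19.

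Patterns most like those of Rasgrp2 and Ksr1 were looked for by Euclidean distance over the log2 values of the 4 arrays. Nearest to Rasgrp2 were Pld4 (distance 0.17), Cnn2, which encodes calponin 2 (0.31), and F2r, which encodes the thrombin receptor PAR1 (0.31). F2r gave 8.13 and 8.10 in MEL cells and 4.91 and 4.81 in ES-EP. Nearest to Ksr1 were Fnbp1 (0.12), the SLAM family receptor gene Ly9 (0.14) and Zdhhc8, a palmitoyltransferase gene (0.15). With 2 groups of 2 arrays this likeness reflects signal level and gap alone.

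Other genes of the same signaling route were read from 12 lists, with 141 distinct measured genes. Of these, 56 (39.7%, against 20.5% of all genes) were called higher in MEL cells and 45 (31.9%, against 43.2%) lower. Their median difference was 0.04, against -0.15 for all genes. The counts of each list below stand beside these same shares of all genes. All 56 higher calls remained after each of the 3 rescalings, but 24 of the 45 lower calls did. The rescalings raised the median difference of all genes, which favors higher calls over lower ones. The higher calls are therefore not shown to be sounder than the lower ones. Among 13 GTPases of the RAS and RAP families, 4 were called higher and 2 lower. Nras, a substrate of SOS and RASGRP proteins, gave 11.25 and 11.29 in MEL cells and 10.30 and 10.40 in ES-EP and was 1.89-fold higher in MEL cells. The RAL GTPase Ralb was 2.29-fold higher in MEL cells, and Rap2b 1.73-fold higher in ES-EP. Rap1a and Rap1b, the main substrates of RASGRP2 and RAPGEF1, did not pass the test (-0.13 ± 0.08, adjusted p = 0.195, and -0.01 ± 0.08, adjusted p = 0.939).

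**Figure D3:**
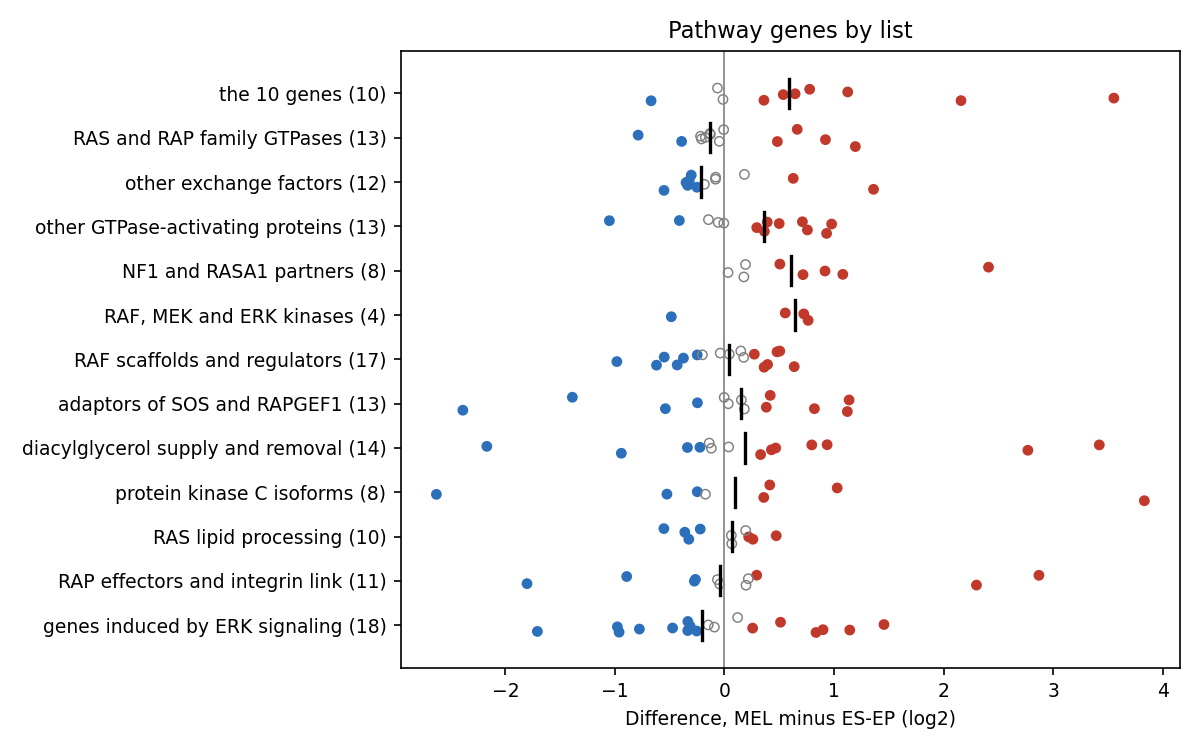
Difference between MEL cells and ES-EP (x axis, log2) of each measured gene, for the 10 genes and the 12 pathway lists (y axis, with the number of measured genes). Red points were called higher in MEL cells, blue points lower, open points were not called, and black bars are medians. The median of the 10 genes was 0.59 and that of the other GTPase-activating proteins 0.36.

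Of 12 other exchange factors 2 were called higher and 6 lower, and after median centring 3 were higher and 1 lower. The RAL activator Ralgds was 2.57-fold higher in MEL cells, Rapgefl1 1.54-fold (against background), and Rapgef6 was 1.47-fold higher in ES-EP. Of 13 other GTPase-activating proteins 8 were higher in MEL cells and 2 lower. Rasa2 (1.97-fold) and the RAP inactivator Sipa1l3 (1.91-fold) were higher in MEL cells, whereas the RAP inactivator Rap1gap2 was 2.07-fold higher in ES-EP. Of 8 genes listed as partners of NF1 or RASA1, which are those of the SPRED and DOK adaptors, G3bp1 and Arhgap35, 5 were higher in MEL cells and none was called lower. These included Dok2, an adaptor that brings RASA1 to receptors, with 8.40 and 8.17 in MEL cells and 5.89 and 5.87 in ES-EP, 5.31-fold higher in MEL cells. Dok3, an adaptor of the same family that is not known to bind RASA1, was 2.11-fold and Spred3, of the NF1-binding SPRED family, 1.89-fold higher in MEL cells.

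Adaptors that bring SOS or RAPGEF1 to receptors were listed together with Cbl, Cblb and Ptpn11, which encode enzymes. Of these 13 genes, 5 were called higher in MEL cells, Cbl and Ptpn11 among them, and 4 lower. These counts were 6 and 3 with quantile normalization and 7 and 3 with median centring or cyclic loess. Grb2 (0.18 ± 0.10, adjusted p = 0.133), Crk (0.03 ± 0.09, adjusted p = 0.747) and Crkl (-0.00 ± 0.08, adjusted p = 0.978) did not pass the test. The docking protein genes Gab2 and Gab1 stood higher in ES-EP, by 5.23-fold and 2.62-fold, whereas Lcp2, which encodes SLP-76, was 2.20-fold higher in MEL cells. Among the kinases that KSR1 holds, 3 of 4 measured were higher in MEL cells, Map2k2 1.70-fold, Araf 1.65-fold and Map2k1 1.47-fold, and Braf was 1.40-fold higher in ES-EP. Other RAF scaffolds and regulators split 6 to 6 among 17 (8 to 4 with quantile normalization or median centring). The 14-3-3 genes Ywhaz and Ywhaq were 1.55-fold higher in MEL cells and 1.98-fold higher in ES-EP, and the scaffold Iqgap1 1.54-fold higher in ES-EP.

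Genes that supply or remove diacylglycerol, the lipid that most but not all RASGRP proteins bind well, held some of the widest gaps. Of 14 measured, 7 were higher in MEL cells and 4 lower (7 and 2 with quantile normalization or median centring, 8 and 2 with cyclic loess). Dgkz, called higher, lost its call with the mean of its probe sets (0.03). The phospholipase genes Plcb2 (8.71 and 8.51 in MEL cells, 5.20 and 5.17 in ES-EP) and Plcg2 (8.37 and 8.22 against 5.64 and 5.42) were 10.7-fold and 6.82-fold higher in MEL cells, both against background. In the opposite direction Plcb1 differed 4.50-fold against background. Protein kinase C genes, many of whose products also respond to diacylglycerol, split 4 to 3 among 8 (4 to 2 under each rescaling). Prkcz, called lower, lost its call with the mean of its probe sets (-0.19). Prkca stood at 8.45 and 8.31 in MEL cells and 4.53 and 4.58 in ES-EP, 14.2-fold higher in MEL cells against background. Prkcq went the other way, with 7.89 and 7.80 in MEL cells and 10.44 and 10.51 in ES-EP, 6.19-fold higher in ES-EP, and Prkce was 2.04-fold higher in MEL cells.

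**Figure D4:**
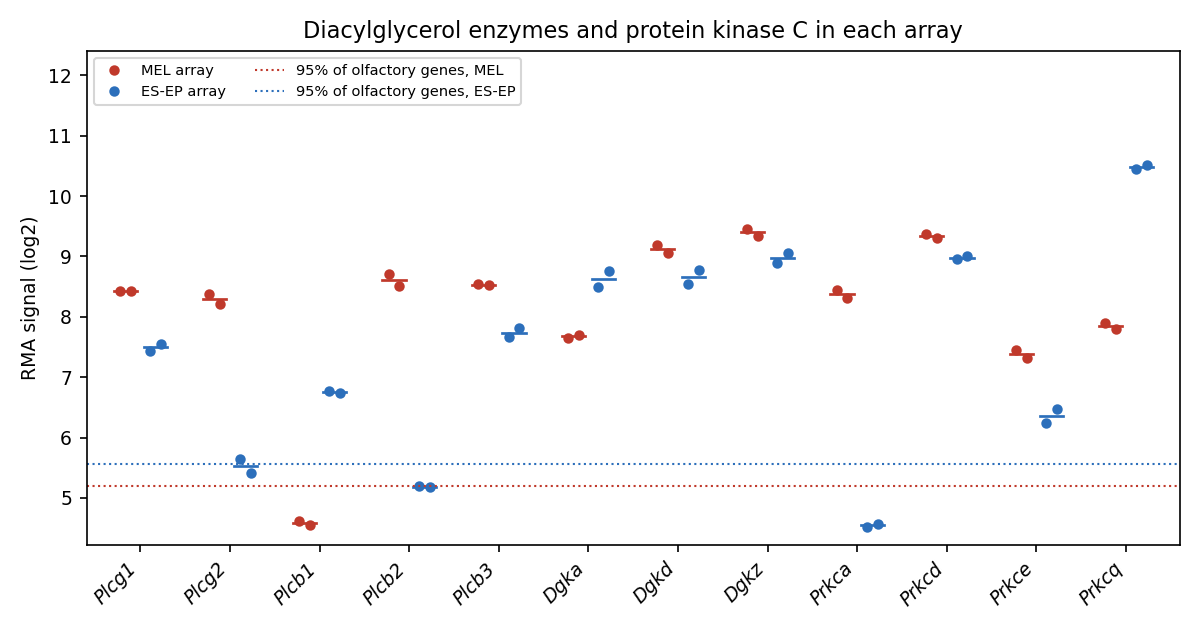
Log2 RMA signal (y axis) of genes for phospholipases C, diacylglycerol kinases and protein kinase C (x axis) in each array, MEL cells in red and ES-EP in blue. Points are single arrays, bars are means of 2, and dotted lines mark the olfactory level of each cell type. Prkca stood at 8.45 and 8.31 in MEL cells and Prkcq at 10.44 and 10.51 in ES-EP.

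Of 10 genes of RAS lipid processing 3 were higher and 4 lower in MEL cells, a balance that turned to 6 and 2 with median centring and to 4 and 3 with quantile normalization or cyclic loess, with Zdhhc9 1.47-fold and Lypla2 1.29-fold higher in ES-EP and Icmt 1.39-fold higher in MEL cells. Of 11 RAP effectors and integrin genes 3 were higher and 4 lower (5 and 2 with median centring). The RAP effector Rassf5 was 7.31-fold higher in MEL cells, with an ES-EP mean of 5.57 at the olfactory level. The platelet integrin chains went opposite ways, Itga2b 4.92-fold higher in MEL cells and Itgb3 3.49-fold higher in ES-EP. Genes that ERK signaling induces in many cells showed no common direction, 6 of 18 higher and 9 lower in MEL cells (7 and 5 with median centring). Dusp6 (against background) and Dusp5 were 2.74-fold and 2.21-fold higher in MEL cells, and Spry2 3.27-fold higher in ES-EP, also against background.

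Since RASGRP genes mark other blood cells, markers of these were read beside them. Of 8 measured platelet and megakaryocyte markers, 6 were, like Rasgrp2, higher in MEL cells and 2 lower (none lower after any rescaling). Of the 8, 2 did not reach the olfactory level in MEL cells or ES-EP, among them Ppbp, which was called higher. The mean log2 signal of the 8 was 7.02 to 7.09 in the MEL arrays and 5.77 in both ES-EP arrays. Pf4 was 31.2-fold higher in MEL cells against background, Treml1 2.43-fold and Gp5 1.83-fold, while Vwf and Clec1b, called lower, lost those calls after rescaling. Of 8 mast cell markers, in contrast to Rasgrp4, 7 were called lower in MEL cells and none higher. The lower calls were 6 with quantile normalization or median centring and 5 with cyclic loess. Means were 4.61 to 4.70 in the MEL arrays and 6.19 to 6.21 in the ES-EP arrays. Ms4a2 was 137-fold (against background) and Hdc 3.92-fold higher in ES-EP, the widest gaps of this list. But 5 of the 8 did not reach the olfactory level in MEL cells or ES-EP. Of these, Cma1, Mcpt4, Cpa3 and Tpsab1 were called lower, and their calls are given with no direction of expression. T cell markers were above the level for 2 of 7 in MEL cells and 3 of 7 in ES-EP, and B cell markers for 1 of 6 in each (1 higher and 2 lower, and 0 higher and 3 lower in MEL cells). With cyclic loess the T cell markers were 2 higher and 0 lower, with median centring 2 and 2, and the B cell markers 0 higher and 2 lower under each rescaling. The parts that such cells or programs had in the values of Rasgrp2, Rasgrp1, Rasgrp3 and Rasgrp4 were not tested. Myeloid, fibroblast and embryonic stem cell markers were above the level for 1 of 8, 3 of 6 and 1 of 6 in MEL cells and 2 of 8, 3 of 6 and 1 of 6 in ES-EP. In these lists 1, 0 and 0 genes were called higher in MEL cells and 3, 5 and 3 lower. Myeloid markers turned to 2 higher and 1 lower under each rescaling, and embryonic stem cell markers to 2 and 1 (2 and 2 with median centring), while fibroblast markers stayed at 0 higher with 2 to 3 lower. Of the 9 erythroid markers 2 were higher and 6 lower, with means of 9.77 to 9.84 in the MEL arrays and 10.88 to 10.96 in the ES-EP arrays, counts that were the same under each rescaling.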

How the data were processed

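RNA of 4 cultures (2 MEL, 2 ES-EP) was hybridized to Affymetrix Mouse Gene 1.0 ST arrays, 1 array per culture. The deposited values are log2 signals that the authors made from scanner files by RMA in GeneSpring GX, with replicates kept apart; the software version is not given in the sources used here. Of 35557 probe sets, 21789 had a single gene symbol in the array's gene table, updated by Entrez number to GRCm38.p6 names, and each of 19938 genes was read from its brightest probe set on average. Probe sets with several symbols (1621) or unnamed here (12147) were not used. Groups and replicate letters came from the sample titles. The genes and lists were chosen with earlier results of these data known. Named genes were the 10 genes, up to 3 called genes per list with the largest differences, and direct partners. The genes nearest in pattern skipped clone names, and marker genes, Ksr2 and the other diacylglycerol genes plotted were named after their values were seen.

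MEL was compared with ES-EP by limma 3.58.1 in R 4.3.3 (lmFit and eBayes without a block; degrees of freedom 2 residual, 8.20 prior), two-sided, with Benjamini-Hochberg adjustment over all genes. The p-values measure the spread between duplicate cultures only, and the number of arrays limits the precision. In a simulation of this comparison with 19938 genes, 97% of 67 genes moved by 0.5 and 100% of those moved by 1 or 2 were recovered, with 10 false calls. The simulated noise was normal with the fitted SD, few genes were moved, in random directions, and the arrays had no common shift. The real arrays had 63.8% of genes called and a median difference of -0.15, so these figures do not carry over to their calls. Promoter windows and motifs were read with Python 3.11.15, and figures drawn with matplotlib 3.10.9. Alternatives were 3 rescalings, a filter at the median signal, the mean of probe sets, a replicate block, eBayes with trend and robust, a test against a 1.2-fold difference, Holm's adjustment, the study's 2-fold rule and leaving out each array.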

Additional observations from a re-analysis of the deposited data

How the results depend on the processing

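Over 14 alternatives, the called directions of Rasgrp2, Ksr1 and Rasgrp4 held in each. Of the 10 genes, 7 were higher and 1 lower in MEL cells. With Holm's adjustment or the 2-fold rule without a test these counts were 3 and 0, and with the filter at the median signal, which left Rasgrp1 and Rasgrp3 out, none was lower. Leaving out an array gave 6 to 7 higher and 1 lower. Rapgef1 lost its call without MEL replicate A and in the test against a 1.2-fold difference. Uncalled differences turned sign, under the rescalings (quantile, centring, cyclic loess) for Rasgrp3 to 0.093, 0.084 and 0.085 and for Sos2 to 0.013, 0.13 and 0.053, and for Sos2 also without MEL replicate A or ES-EP replicate B (range -0.12 to 0.10 over arrays left out).

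Calls over all genes (12718, of which 4096 higher and 8622 lower) came to 7117 with the filter, 6391 against a 1.2-fold difference, 2837 with Holm's adjustment and 1993 by the 2-fold rule. The higher calls were 2488, 1484 and 1141 in the last 3 of these, and the lower calls 3903, 1353 and 852, and 5644 with median centring, 5460 with cyclic loess and 3876 with the filter. Pathway genes called higher (56) came to 22 with Holm's adjustment and 14 by the 2-fold rule. Those called lower (45) came to 26 with median centring, 28 with cyclic loess, 28 with the filter, 21 against a 1.2-fold difference, 12 with Holm's adjustment and 7 by the 2-fold rule. Leaving out an array gave 49 to 57 pathway genes higher and 31 to 40 lower, and over all genes 9889 to 11427 calls, 3311 to 4003 higher and 6410 to 7823 lower. Under quantile normalization, median centring and cyclic loess the median difference of all genes moved from -0.15 to -0.027, -0.0058 and -0.0032. The part of this shift in the moved counts was not tested.

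The replicate letters A and B were shared by both cell types, but deviations of the same letter did not go together (r = -0.04 across genes), so the letter was not taken as a pairing. A fit with the replicate block gave 7 of the 10 genes higher and 1 lower, and 4093 higher and 8616 lower calls over all genes. Signals near the olfactory level limit the sizes given for Rasgrp2, Ksr1 and Rasgrp4 and the reading of Rasgrp1 and Rasgrp3.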
